A study of Mus musculus with 6 samples.

Results

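HIF-1 alpha, the oxygen-controlled subunit of a transcription factor, and 9 genes known for their part in the response to hypoxia were followed by RNA-seq in mouse macrophages treated with SKI-II. The 10 genes were taken by gene symbol from the 49315 genes counted, with earlier results of these data known. They are Hif1a, Egln1, Egln3, Vegfa, Bnip3, Bnip3l, Ndrg1, Ddit4, Ankrd37 and P4ha1. Of these, 9 had enough reads for a test and Egln3 did not. Ndrg1, Ddit4, Vegfa and P4ha1 were higher after SKI-II, by 1.61-fold for P4ha1 up to 3.51-fold for Ndrg1. No change of Hif1a itself was called, with a fold change of 0.910 and an interval that spanned no change.

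The libraries came from RAW264.7, a single macrophage-like cell line from mouse with the genotype given as WT. SKI-II, an inhibitor of sphingosine kinase, was given at 4 μg/mL for 24 h, and the controls received its vehicle DMSO. Each condition had 3 libraries of poly(A) RNA, and the labels name no library of cells held at low oxygen. The labels do not say whether the cultures were separate, so the p-values measure only the spread between these libraries.

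HIF-1 is a dimer of HIF-1 alpha and ARNT. In the presence of oxygen the EGLN enzymes hydroxylate HIF-1 alpha on prolines, the VHL ubiquitin ligase then binds it, and the protein is degraded. When oxygen falls, HIF-1 alpha accumulates and the dimer binds short core motifs near its target genes, which serve glucose use, blood vessel growth, removal of mitochondria and collagen folding. The main control is thus on the protein, which RNA-seq does not measure, and in macrophages HIF-1 alpha is also known for its part in inflammatory activation.

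The libraries held between 12495957 and 20050677 counts. Between libraries of a group the counts varied by 15.4 to 58.1 times what sampling alone gives (chi-square over its degrees of freedom), and each was taken as 1 replicate. Mitochondrial genes took 1.07% to 1.25% of the counts in DMSO and 1.38% to 1.71% in SKI-II, and the part of this share in the results was not tested. All 10 listed macrophage markers were expressed. Of them 2 were called higher after SKI-II (Fcgr1 and Cd14) and 3 lower (Adgre1, Lyz2 and Itgam), beside 18.4% and 19.7% of all tested genes. Among the listed markers of T and NK cells, fibroblasts, epithelium and endothelium none had enough reads for a test, the epithelial markers were at 0 in all libraries, and of the B cell markers only Ighm was tested. Ighm, the heavy chain of immunoglobulin M, had raw counts of 284, 222 and 186 in DMSO and 1, 1 and 0 in SKI-II and was called lower by edgeR (adjusted p = 6.90e-06), having passed the filter on low counts only through the DMSO libraries, where it is high. The B cell marker Ms4a1 was at 0 in all libraries and Cd79a at 0 to 5 counts. Its part in the results was not tested. In bulk RNA, fewer cells of a type and less RNA per cell cannot be told apart.

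The 250 bases before the start of these genes were read from the RefSeq table of promoters (build GRCm38.p6) and searched for the cores ACGTG and GCGTG, which HIF binds, on both strands. Of the 10 genes, 8 had a window in the table. All 8 held at least 1 of the cores, and all 8 held ACGTG, but Vegfa held them only before the second of its 2 listed starts. Either core was in 38.6% of all 32851 windows and in 56.1% of the 11745 windows of genes tested here, and ACGTG alone in 16.6% and 21.8%. These shares are of windows, and the 8 genes had 9 windows. The windows of tested genes were also richer in G and C, with a median of 59.6% against 52.4%. Those of the 8 genes held from 50.8% (Egln3) to 86.0% (Egln1), and the part of this in the matches was not tested. The 8 genes include Vegfa, Ddit4 and P4ha1, which were called higher, and also Hif1a, Egln1, Egln3, Bnip3 and Ankrd37, which were not. A match describes these letters and does not show that HIF binds there. The second window of Vegfa and the windows of Hif1a and Ankrd37 lie inside the GENCODE gene, away from its outermost start. Shown here are windows of called and uncalled genes, 5′ to 3′ on the strand of the gene, with the cores of either strand in capitals. P4ha2, the partner of P4ha1 discussed further on, is shown with them. CACGTG reads as ACGTG on each strand, so that its matches overlap.
Ddit4, chr10:59951771-59952020, minus strand: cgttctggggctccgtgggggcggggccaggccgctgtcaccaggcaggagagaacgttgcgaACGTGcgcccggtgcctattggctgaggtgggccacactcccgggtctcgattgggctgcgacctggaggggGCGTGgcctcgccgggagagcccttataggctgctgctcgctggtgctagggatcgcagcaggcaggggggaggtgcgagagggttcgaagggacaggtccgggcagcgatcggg
P4ha1, chr10:59323046-59323295, plus strand: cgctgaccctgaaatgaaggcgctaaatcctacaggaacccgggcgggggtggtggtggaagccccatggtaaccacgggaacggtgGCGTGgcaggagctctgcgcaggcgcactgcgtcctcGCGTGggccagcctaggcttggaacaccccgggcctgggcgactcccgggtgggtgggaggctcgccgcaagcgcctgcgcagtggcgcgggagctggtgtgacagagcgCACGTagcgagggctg
P4ha2, chr11:54100674-54100923, plus strand: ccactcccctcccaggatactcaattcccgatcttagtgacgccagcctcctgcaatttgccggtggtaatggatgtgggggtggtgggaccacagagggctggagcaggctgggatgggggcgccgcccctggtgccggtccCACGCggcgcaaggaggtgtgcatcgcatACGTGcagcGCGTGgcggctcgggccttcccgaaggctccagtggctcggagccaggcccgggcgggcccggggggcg
Vegfa, chr17:46032378-46032627, minus strand: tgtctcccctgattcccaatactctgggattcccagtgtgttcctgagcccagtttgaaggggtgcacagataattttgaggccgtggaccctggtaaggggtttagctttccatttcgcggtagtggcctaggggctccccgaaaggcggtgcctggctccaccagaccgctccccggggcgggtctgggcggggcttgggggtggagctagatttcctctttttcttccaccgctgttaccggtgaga
Vegfa, chr17:46025164-46025413, minus strand: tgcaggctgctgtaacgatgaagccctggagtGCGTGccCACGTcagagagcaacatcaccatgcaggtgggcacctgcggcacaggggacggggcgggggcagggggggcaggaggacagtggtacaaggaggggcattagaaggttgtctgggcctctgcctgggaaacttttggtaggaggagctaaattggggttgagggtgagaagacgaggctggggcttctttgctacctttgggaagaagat
Bnip3, chr7:138909507-138909756, minus strand: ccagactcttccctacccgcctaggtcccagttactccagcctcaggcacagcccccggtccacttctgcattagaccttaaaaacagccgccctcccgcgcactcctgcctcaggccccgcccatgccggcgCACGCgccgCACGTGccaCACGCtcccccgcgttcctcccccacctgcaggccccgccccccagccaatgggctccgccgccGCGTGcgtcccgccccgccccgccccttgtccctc
Ankrd37, chr8:45999851-46000100, minus strand: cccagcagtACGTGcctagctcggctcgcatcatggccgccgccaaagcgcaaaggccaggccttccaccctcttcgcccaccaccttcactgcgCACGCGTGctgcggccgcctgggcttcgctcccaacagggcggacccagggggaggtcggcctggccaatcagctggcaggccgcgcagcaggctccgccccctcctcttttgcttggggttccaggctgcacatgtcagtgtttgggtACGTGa
In the Ddit4 window ACGTG began 187 bases and GCGTG 115 bases before the start. The Bnip3 window held the most matches of the members, 5 in all, of which a CACGTG gave 2. The first window of Vegfa held none.

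The first question was whether the factor and the enzymes that sense oxygen for it changed. Hif1a (chr12:73901375-73947530, plus strand, GRCm38 as in GENCODE M21) had 3161, 3938 and 4997 normalized counts in the DMSO libraries against 3347, 3672 and 3994 in the SKI-II libraries. The SKI-II libraries all lay inside the DMSO range. The comparison gave a log2 fold change of -0.14 ± 0.17 (SE), with a 95% interval of -0.51 to 0.24 (adjusted p = 0.563, by the quasi-likelihood test of edgeR, Benjamini-Hochberg over 12274 genes, which also gave the adjusted p-values that follow). Without DMSO 3, the highest control, the log2 fold change was 0.047 (adjusted p = 0.841). Normalized counts are scaled by TMM to libraries of 1 common size.

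Egln1 (chr8:124908587-124949324, minus strand), which encodes PHD2, the main prolyl hydroxylase acting on HIF-1 alpha, had 591, 446 and 541 normalized counts in the DMSO libraries against 953, 663 and 478 in the SKI-II libraries. SKI-II 1 and 2 were above all controls and SKI-II 3 was among them. The comparison gave a log2 fold change of 0.41 ± 0.23 (SE), with an interval of -0.11 to 0.92 (adjusted p = 0.195), which did not pass the threshold of 0.05. Without SKI-II 3 it was 0.62 (adjusted p = 0.0321) and passed, and without SKI-II 1 it was 0.11 (adjusted p = 0.706).

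Egln3 (chr12:54178981-54203860, minus strand), which encodes PHD3 and is itself known as a hypoxia target, was close to absent, with raw counts of 10, 8 and 5 in DMSO and 3, 2 and 3 in SKI-II. All SKI-II libraries were below all DMSO libraries. The ratio of the summed counts, scaled for depth, was 0.311, with an exact 95% interval of 0.120 to 0.720 that covers counting error only. With no filter on low counts the adjusted p was 0.154.

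Egln2, which encodes PHD1, and Hif1an, which encodes FIH, the asparaginyl hydroxylase of HIF-1 alpha, are no members but complete the oxygen-sensing enzymes, and they are given here after their values were seen. Egln2 had 633, 548 and 423 normalized counts in the DMSO libraries against 818, 777 and 651 in the SKI-II libraries and was called higher (a log2 fold change of 0.48 ± 0.17 (SE), adjusted p = 0.0473). Hif1an had 625, 404 and 325 normalized counts in the DMSO libraries against 919, 734 and 567 in the SKI-II libraries and was called higher (a log2 fold change of 0.71 ± 0.25 (SE), adjusted p = 0.0471). In Egln2 the groups were apart, and in Hif1an DMSO 1 was above SKI-II 3. Both calls were close to the threshold. That of Egln2 was lost with library size alone, with at least 10 counts in every library, and without DMSO 2, DMSO 3, SKI-II 1 or SKI-II 2 (0.34 to 0.49, adjusted p of 0.118 to 0.154). That of Hif1an was lost under the same pair of settings and without DMSO 2, DMSO 3, SKI-II 1 or SKI-II 2 (0.52 to 0.72, adjusted p of 0.102 to 0.191).

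Of the targets, Ndrg1 (chr15:66929318-66969640, minus strand), a gene long known to be induced by hypoxia and by differentiation, changed the most among the members. It had 3029, 4081 and 5983 normalized counts in the DMSO libraries against 19269, 14728 and 11961 in the SKI-II libraries. The lowest SKI-II library was thus far above the highest control. It rose 3.51-fold, a log2 fold change of 1.81 ± 0.25 (SE) (interval 1.25 to 2.37, adjusted p = 0.000549), and stood at place 364 from the top among the 12274 genes tested.

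Ddit4 (chr10:59949669-59951834, minus strand) encodes REDD1, a stress-induced inhibitor of the growth kinase complex mTORC1. It had 443, 336 and 663 normalized counts in the DMSO libraries against 1650.4, 1000.0 and 889.7 in the SKI-II libraries. The groups did not overlap, although DMSO 3 and SKI-II 3 came near each other. Ddit4 rose 2.45-fold, a log2 fold change of 1.29 ± 0.28 (SE) (interval 0.67 to 1.91, adjusted p = 0.00548).

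Vegfa (chr17:46016993-46032369, minus strand), the growth factor that drives the formation of blood vessels, had 1066, 1041 and 1019 normalized counts in the DMSO libraries against 2217, 2186 and 1350.0 in the SKI-II libraries. The controls were close together, and SKI-II 3 was the lowest of the treated libraries, still above all of them. Vegfa rose 1.84-fold, a log2 fold change of 0.88 ± 0.18 (SE) (interval 0.48 to 1.28, adjusted p = 0.00423).

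P4ha1 (chr10:59323296-59373304, plus strand), a catalytic subunit of the prolyl 4-hydroxylase that collagen needs to fold, had 2574, 2482 and 3915 normalized counts in the DMSO libraries against 5149, 4619 and 4640.0 in the SKI-II libraries. The treated libraries were close together and all above the controls, of which DMSO 3 was the highest. P4ha1 rose 1.61-fold, a log2 fold change of 0.68 ± 0.18 (SE) (interval 0.29 to 1.08, adjusted p = 0.0128). This call was lost without DMSO 2 (0.56, adjusted p = 0.0717).

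Bnip3 and Bnip3l encode related receptors on the outer membrane of mitochondria that mark them for autophagy, and neither passed the threshold. Bnip3 (chr7:138890836-138909519, minus strand) had 878, 369 and 604 normalized counts in the DMSO libraries against 2038, 1490.5 and 518 in the SKI-II libraries. SKI-II 1 and 2 were above all controls, but SKI-II 3 was below DMSO 1 and 3. The comparison gave a log2 fold change of 1.12 ± 0.43 (SE) (interval 0.15 to 2.09, adjusted p = 0.0685). Bnip3 passed without SKI-II 3, at 1.51 (adjusted p = 0.00356), and without DMSO 1, at 1.45 (adjusted p = 0.0300). It was lower without SKI-II 1, at 0.70 (adjusted p = 0.293), and without DMSO 2, at 0.85 (adjusted p = 0.205).

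Bnip3l (chr14:66985239-67008877, minus strand) had 867, 1015 and 1367 normalized counts in the DMSO libraries against 1696, 1406 and 1203 in the SKI-II libraries. SKI-II 3 was below DMSO 3, so the groups overlapped. The comparison gave a log2 fold change of 0.40 ± 0.19 (SE) (interval -0.013 to 0.82, adjusted p = 0.117), and without DMSO 3 it passed at 0.61 (adjusted p = 0.0199). Without DMSO 1 it was 0.25 (adjusted p = 0.306), and without SKI-II 1 0.26 (adjusted p = 0.347).

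Ankrd37 (chr8:45996902-46005707, minus strand), a small ankyrin repeat gene known as a HIF-1 target, had the lowest log2 fold change of the tested members. Its raw counts were 56, 12 and 46 in DMSO and 14, 24 and 6 in SKI-II. In normalized counts it had 54.4, 15.2 and 45.5 in DMSO and 15.7, 22.9 and 4.89 in SKI-II. DMSO 2 was below SKI-II 1 and 2, and the groups overlapped. The comparison gave a log2 fold change of -1.44 ± 0.59 (SE) (interval -2.75 to -0.12, adjusted p = 0.0789), and without DMSO 2 it was called lower at -1.81 (adjusted p = 0.0382). Without DMSO 1 it was -1.12 (adjusted p = 0.197), and its adjusted p without SKI-II 3 was 0.180. Ankrd37 shares 57 exon bases with Ufsp2 on the opposite strand, which held 9804 counts over the 6 libraries, and 349 with Lrp2bp, which held 12. Since the strand setting of the counting is not given, reads of such pairs cannot be told apart. On the opposite strand Hif1a shares 330 exon bases with Gm15283 (55 counts over all libraries) and Ndrg1 137 with Gm2895 (42 counts). On its own strand Hif1a shares 148 exon bases with Gm49321, a protein-coding gene of GENCODE M21 that is absent from the deposited counts.

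**Figure D1:**
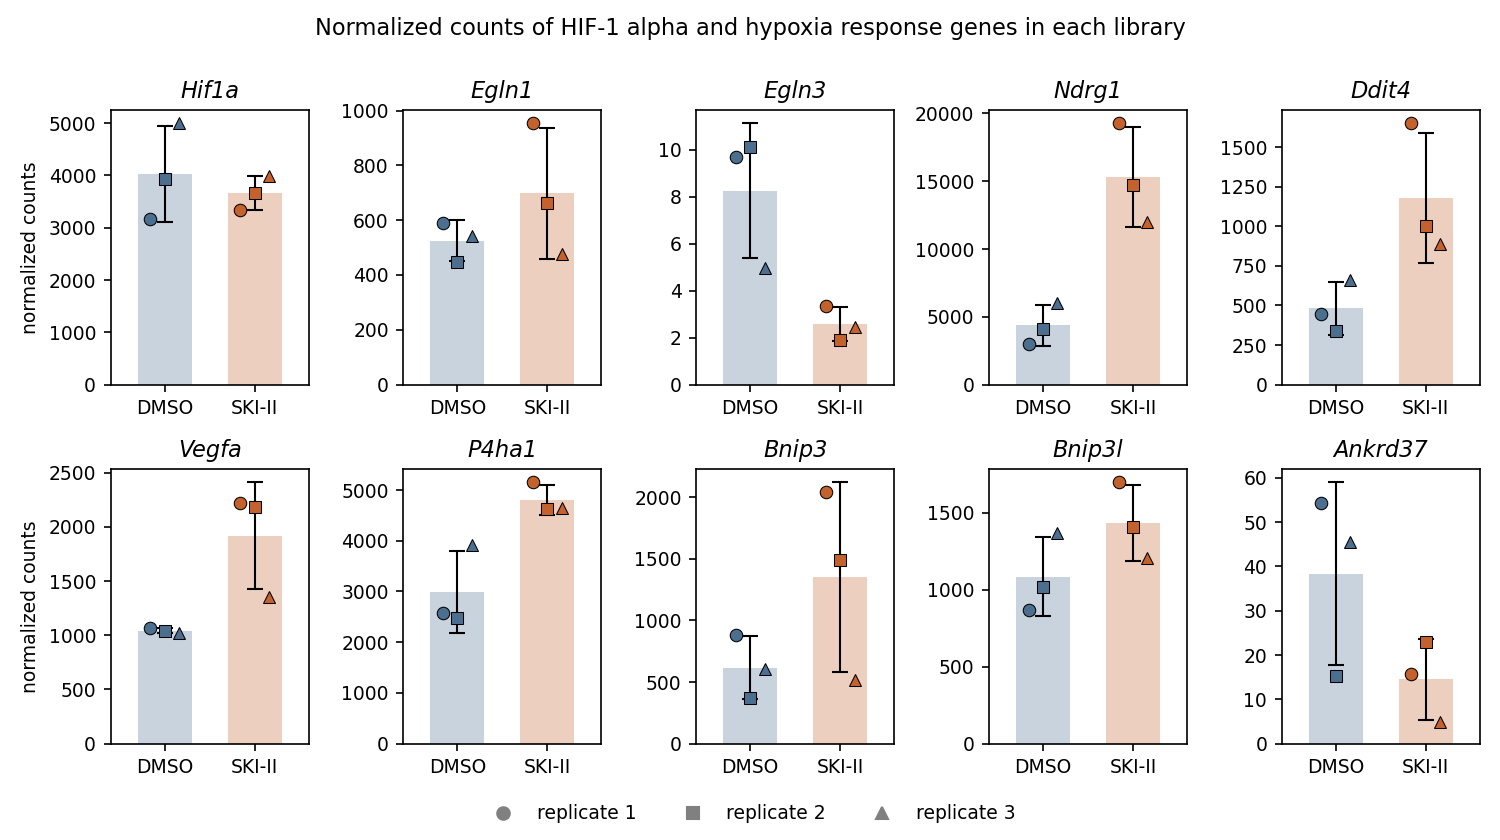
Normalized counts of the 10 genes (vertical axis, from 0, its own scale in each panel) in DMSO and SKI-II, with bars for the mean, whiskers for the SD (n = 3) and a symbol for each replicate number. In Ndrg1, Ddit4, Vegfa and P4ha1 every SKI-II library lies above every DMSO library, and in Egln3 every one lies below, at raw counts of 10 or fewer.

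In all, 4 of the 9 tested members were called higher and none lower at an adjusted p below 0.05, where 18.4% of all tested genes were called higher and 19.7% lower. At an unadjusted p below 0.05 Ankrd37 was the 1 member on the lower side, and DESeq2 and limma-voom also called 0 lower. With a log2 fold change above 1 asked for as well, 2 members were called, Ndrg1 and Ddit4, where 8.28% of all genes were called higher and 7.44% lower below -1. Among the 9 tested members the groups did not overlap for the same 4, all with SKI-II higher, where this held for 24.8% of all genes, and for 25.5% with SKI-II lower. The median log2 fold change of the 9 members was 0.68, and that of all tested genes was 0.0038.

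The members did not move evenly across the treated libraries. SKI-II 1 was the highest of the 3 treated libraries for 8 of the 10 members, and SKI-II 3 was the lowest for 7. Among the controls DMSO 3 was the highest for 5 members and DMSO 2 the lowest for 5. How often these orders hold over all tested genes was not counted, so they are not shown to be particular to the members. SKI-II 3 was also the deepest library and had the highest mitochondrial share, 1.71%, and the part of either in its lower values was not tested.

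**Figure D2:**
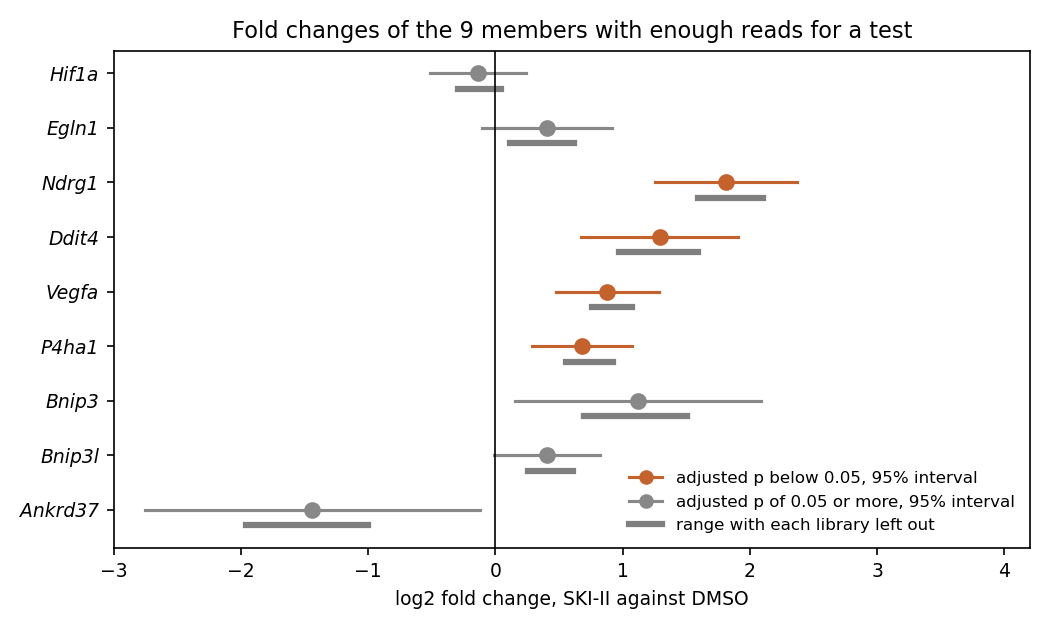
Log2 fold change of SKI-II against DMSO (horizontal axis) for the 9 tested members, with the 95% interval as a thin line, and below it, as a grey bar, the range when each library was left out in turn. The range of Hif1a spans 0, from -0.30 to 0.047, and those of Ndrg1, Ddit4, Vegfa and P4ha1 stay above 0.

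Levels of different genes were compared as TPM, the abundance per transcript length, computed here from the exon length of each gene. In DMSO, P4ha1 at 148 ± 26 TPM (SD, n = 3), Hif1a at 139.7 ± 19.3 and Ndrg1 at 134 ± 33.5 were the most abundant members and lay within each other's spread. Below them came Bnip3l (57.3 ± 8.11 TPM), Bnip3 (56.9 ± 26.7), Ddit4 (55.8 ± 15.0) and Vegfa (50.4 ± 5.64). Bnip3, Ddit4 and Vegfa lay within the spread of Bnip3l. Egln1 followed at 30.3 ± 5.55 TPM, Ankrd37 at 5.16 ± 2.91 and Egln3 at 0.655 ± 0.267.

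In SKI-II the order was led by Ndrg1 at 476 ± 134 TPM and P4ha1 at 238 ± 24.1. Ddit4 (138 ± 53.6 TPM), Hif1a (126 ± 5.71) and Bnip3 (123 ± 73.8) came next, with Hif1a and Bnip3 within the spread of Ddit4. Vegfa (91.8 ± 26.7) and Bnip3l (76.1 ± 16.3) followed. Egln1 was at 39.9 ± 15.3 TPM, Ankrd37 at 1.94 ± 1.23 and Egln3 at 0.197 ± 0.0622. Ddit4 thus stood below Hif1a in DMSO, while in SKI-II Hif1a lay within the spread of Ddit4.

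The members were then set beside 116 other genes of the same pathways in 8 lists, of which 98 were tested, 24 (24.5%) were called higher and 18 (18.4%) lower, beside 18.4% and 19.7% of all tested genes, with a median log2 fold change of 0.098. The counts of the single lists that follow are to be read against the same shares of all genes. Among the subunits of HIF and the genes of its oxygen-dependent control, 6 of 16 tested genes were called higher and 0 lower by edgeR (median 0.23). The 6 include Egln2 and Hif1an, which lost the call under the alternatives given above. At an unadjusted p below 0.05, 2 were lower, and DESeq2 and limma-voom each called 1 lower. The 2 genes, chosen after their values were seen, were Epas1, which encodes HIF-2 alpha, and Rbx1, a subunit of the VHL ligase. Epas1 had 42.7, 54.3 and 45.5 normalized counts in the DMSO libraries against 35.8, 22.9 and 14.7 in the SKI-II libraries (a log2 fold change of -0.97 ± 0.37 (SE), adjusted p = 0.0626) and was called by limma-voom, at -1.06 (adjusted p = 0.0428), with no filter and without SKI-II 1, at -1.34 (adjusted p = 0.0328). Without SKI-II 3 it was -0.70 (adjusted p = 0.170). Rbx1 had 1548, 1506 and 2001 normalized counts in the DMSO libraries against 1293, 1288 and 1316 in the SKI-II libraries (a log2 fold change of -0.38 ± 0.14 (SE), adjusted p = 0.0519) and was called by DESeq2, at -0.37 (adjusted p = 0.0465), with library size alone, with at least 10 counts in every library and without DMSO 1, at -0.45 (adjusted p = 0.0369). Without DMSO 3 it was -0.24 (adjusted p = 0.171). Arnt, the partner of HIF-1 alpha, had 1629, 1996 and 1981 normalized counts in the DMSO libraries against 2217, 1625 and 2118 in the SKI-II libraries, with a log2 fold change of 0.088 ± 0.15 (SE) (adjusted p = 0.674), and its sign turned without DMSO 1 and without SKI-II 1. Os9, an endoplasmic reticulum lectin that has been linked to HIF-1 alpha turnover, had 4131, 4135 and 4882 normalized counts in the DMSO libraries against 9593, 8807 and 9183 in the SKI-II libraries and rose 2.10-fold (adjusted p = 0.000201). Cited2, which competes with HIF-1 alpha for the coactivators p300 and CBP, had 6902, 4362 and 5258 normalized counts in the DMSO libraries against 9976, 10865 and 9982 in the SKI-II libraries and rose 1.87-fold (adjusted p = 0.00276). Siah1a, a ubiquitin ligase acting on the EGLN enzymes, had 98.1, 116 and 135 normalized counts in the DMSO libraries against 226, 196 and 229 in the SKI-II libraries and rose 1.86-fold (adjusted p = 0.00556). In these 3 genes no treated library overlapped the controls.

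Of 27 other hypoxia target genes tested, 9 were called higher and 5 lower (median 0.30). Hmox1, the heme-degrading enzyme that also responds to oxidative stress, rose 13.4-fold (adjusted p = 5.37e-05). Rora, a nuclear receptor, was near the limit of detection, with raw counts of 0, 1 and 8 in DMSO and 31, 16 and 23 in SKI-II, and was called higher (log2 fold change 2.79, adjusted p = 0.0178). It passed the filter on low counts only through the SKI-II libraries, where it is high, so a difference was built into its selection. That call was lost without DMSO 2 or SKI-II 1 (2.39 to 2.48, adjusted p of 0.0693 to 0.0777). The log2 fold change was 2.17 (adjusted p = 0.0343) without DMSO 1 and 5.06 (adjusted p = 0.00272) without DMSO 3, which held 8 of the 9 control counts. In the other direction Cox4i2, the cytochrome oxidase subunit made in hypoxia, had raw counts of 14, 11 and 15 in DMSO and 3, 0 and 4 in SKI-II and was called lower (log2 fold change -2.61, adjusted p = 0.0111). It passed the filter only through the DMSO libraries, so the same holds for it.

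The glycolytic enzymes and transporters that HIF-1 is known to induce gave few calls, with 1 of 20 higher, 1 lower and a median of -0.069 by edgeR. DESeq2 called 2 higher and 2 lower among them. Slc2a1, the glucose transporter GLUT1, had 3725, 2718 and 3755 normalized counts in the DMSO libraries against 14706, 12279 and 7502 in the SKI-II libraries. Every treated library was above every control, and it rose 3.38-fold, a log2 fold change of 1.76 ± 0.23 (SE) (adjusted p = 0.000431). Aldoc, an aldolase, was called lower with a log2 fold change of -0.59 ± 0.20 (SE) (adjusted p = 0.0426). It lost the call with limma-voom (-0.55, adjusted p = 0.0550) and without DMSO 2, DMSO 3, SKI-II 1 or SKI-II 2 (-0.69 to -0.30, adjusted p of 0.0549 to 0.134).

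Of the 5 other tested genes of the VEGF family 1 was called higher and 3 lower (median -0.52). Nrp1, a coreceptor of VEGF-A, had 723, 685 and 644 normalized counts in the DMSO libraries against 2649.6, 2586 and 2645 in the SKI-II libraries and rose 3.84-fold (adjusted p = 6.90e-06). Vegfb, a related ligand, had 823, 948 and 1043 normalized counts in the DMSO libraries against 561, 399 and 486 in the SKI-II libraries and was 0.514 of the control level (a log2 fold change of -0.96 ± 0.16 (SE), adjusted p = 0.00130). Nrp2, the second neuropilin, had 12043, 14968 and 16738 normalized counts in the DMSO libraries against 9246, 8848 and 8217 in the SKI-II libraries and was 0.601 of the control level (adjusted p = 0.00447). In all 3 the groups were apart.

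Among other receptors of mitophagy and the PINK1 pathway, the process that Bnip3 and Bnip3l serve, 1 of 9 was called higher and 2 lower (median 0.0057). Phb2, a prohibitin of the inner membrane, had 6755, 6896 and 7562 normalized counts in the DMSO libraries against 2920.4, 3782 and 4224 in the SKI-II libraries and was 0.515 of the control level (adjusted p = 0.00106). Nlrx1 was called higher (a log2 fold change of 0.55 ± 0.18 (SE), adjusted p = 0.0362) and Pgam5, a mitochondrial phosphatase, lower (a log2 fold change of -0.46 ± 0.15 (SE), adjusted p = 0.0401), but neither call held under every alternative. That of Nlrx1 was lost with library size alone (0.54, adjusted p = 0.0615) and without DMSO 2, DMSO 3, SKI-II 1 or SKI-II 3 (0.41 to 0.57, adjusted p of 0.0535 to 0.142). That of Pgam5 was lost without DMSO 2, DMSO 3, SKI-II 1 or SKI-II 2 (-0.49 to -0.35, adjusted p of 0.0823 to 0.106).

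Of the regulators and core of mTORC1, on which Ddit4 acts, 2 of 11 were called higher and 4 lower (median -0.27). Sesn2, a stress-induced inhibitor of the complex as Ddit4 is, had 1271, 1221 and 1356 normalized counts in the DMSO libraries against 2359, 1844 and 1805 in the SKI-II libraries and rose 1.56-fold (adjusted p = 0.00464). Sesn1, its paralog, had 568, 490.2 and 602 normalized counts in the DMSO libraries against 256, 312 and 327 in the SKI-II libraries and was 0.539 of the control level (adjusted p = 0.00174). Deptor, an inhibitor that binds mTOR, had 345, 365 and 490.1 normalized counts in the DMSO libraries against 162, 196 and 253 in the SKI-II libraries and was 0.511 of the control level (adjusted p = 0.00552). The inhibitors of this list were thus called in both directions.

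Of the collagen prolyl and lysyl hydroxylases and their partners, 4 of 7 were called higher and 1 lower (median 0.61). P4ha2, the second catalytic subunit of the enzyme that P4ha1 belongs to, had 24.3, 22.7 and 25.7 normalized counts in the DMSO libraries against 661, 471 and 362 in the SKI-II libraries. It rose 20.3-fold, a log2 fold change of 4.35 ± 0.27 (SE) (adjusted p = 8.45e-06), the largest change among the 98 tested genes of the lists. P4hb, the protein disulfide isomerase that is the other subunit of this enzyme, had 17696, 17354 and 23918 normalized counts in the DMSO libraries against 38394, 36703 and 31668 in the SKI-II libraries and rose 1.81-fold (adjusted p = 0.00409). P3h3, a prolyl 3-hydroxylase family member, rose 1.81-fold (adjusted p = 0.000479). Crtap, the scaffold of the prolyl 3-hydroxylase complex, was 0.649 of the control level (adjusted p = 0.00323).

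Of the 3 other NDRG genes 0 were called higher, also at an unadjusted p below 0.05 and by DESeq2 and limma-voom, and 2 were called lower. Ndrg3 had 1071, 1275 and 1459.5 normalized counts in the DMSO libraries against 754, 651 and 849 in the SKI-II libraries and was 0.592 of the control level (adjusted p = 0.00400), with the groups apart. Ndrg4 was called lower with a log2 fold change of -0.40 ± 0.12 (SE) (adjusted p = 0.0261), and lost the call without DMSO 2, SKI-II 2 or SKI-II 3 (-0.42 to -0.32, adjusted p of 0.0654 to 0.119).

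**Figure D3:**
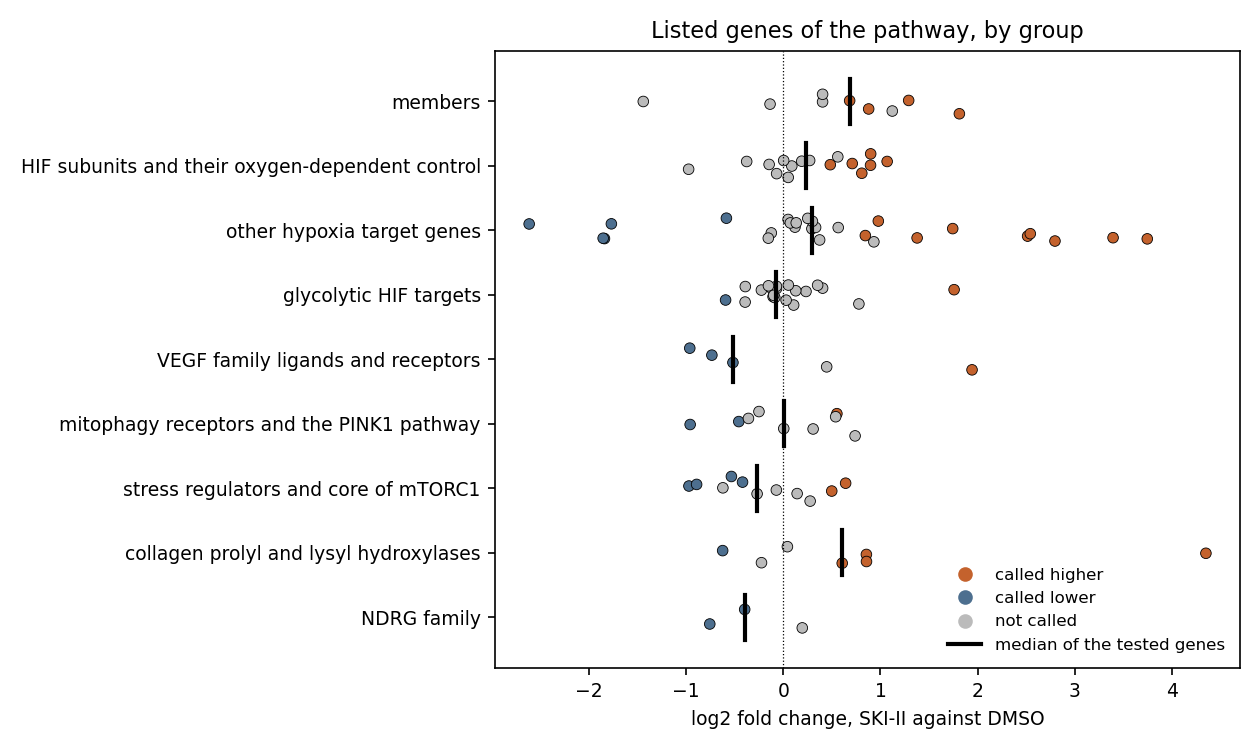
Log2 fold change of SKI-II against DMSO (horizontal axis) for the tested members and for the tested genes of the 8 other lists, 1 point a gene, coloured by the call at an adjusted p below 0.05, with the median of each list as a black line. The glycolytic list has 1 gene called higher, Slc2a1, and the collagen list reaches 4.35 at P4ha2.

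Last, 5 members were set against a related gene in the same library, where depth and scaling cancel. With 3 libraries against 3 the smallest p an exact permutation test can give is 0.1, so no ratio could pass 0.05, and adjustment was over the 5 ratios. P4ha1 over P4ha2 was 106, 109 and 152 in DMSO and 7.79, 9.80 and 12.8 in SKI-II (exact two-sided permutation p = 0.1, 0.167 after adjustment). The ratio fell by 12.2 times while both genes rose, and the groups did not overlap. Vegfa over Vegfb was 1.30, 1.10 and 0.977 in DMSO and 3.95, 5.48 and 2.78 in SKI-II (exact two-sided permutation p = 0.1, 0.167 after adjustment). That ratio was 3.51-fold higher, with no overlap.

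Egln3 over Egln1 had a log2 difference of -2.01 with no overlap (exact two-sided permutation p = 0.1, 0.167 after adjustment), resting on the few counts of Egln3. Bnip3 over Bnip3l was 1.01, 0.364 and 0.442 in DMSO and 1.20, 1.06 and 0.431 in SKI-II (exact two-sided permutation p = 0.3, 0.375 after adjustment). Here DMSO 1 was at the level of SKI-II 1 and 2, and SKI-II 3 at that of DMSO 2 and 3. Hif1a over Arnt was 1.94, 1.97 and 2.52 in DMSO and 1.51, 2.26 and 1.89 in SKI-II (exact two-sided permutation p = 0.4, 0.4 after adjustment), and its groups overlapped.

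**Figure D4:**
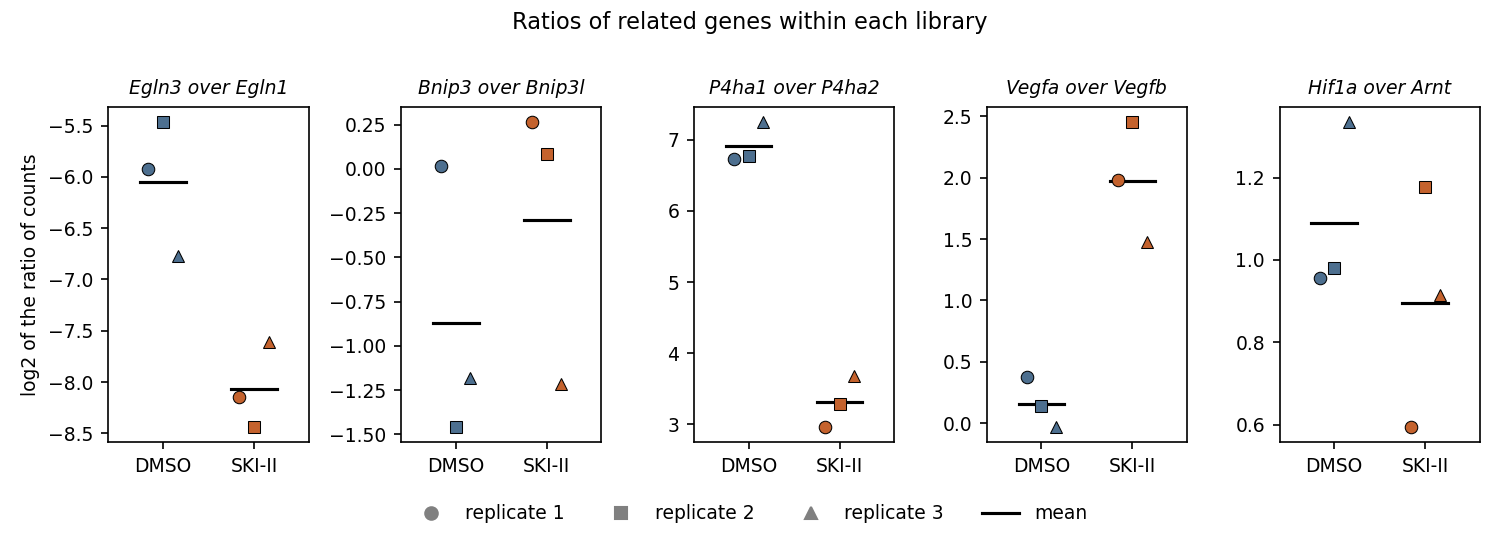
Log2 of the ratio of counts of 5 pairs of related genes (vertical axis, its own scale in each panel) in each library, with the mean of each group as a line. The groups are apart for Egln3 over Egln1, P4ha1 over P4ha2 and Vegfa over Vegfb, and overlap for Bnip3 over Bnip3l and Hif1a over Arnt.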

How the data were processed

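RNA of RAW264.7 cells was sequenced in 3 DMSO and 3 SKI-II libraries, grouped by the titles of the samples. Libraries were made with an Ultra II kit from poly(A) RNA. The authors deposited raw counts of reads per Ensembl gene, without normalization. The submitters' processing notes name Trimmomatic 0.36, STAR 2.5.2b, featureCounts of Subread 1.5.2 and DESeq2. Genome build, annotation release and strand setting are not given in the sources used. Gene names and positions came from GENCODE M21 (GRCm38), which named 49056 of 49315 genes. The unnamed ones held 0.0102% of the counts. The gene Ero1a was matched through an older symbol.

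Genes were kept by edgeR's filter by condition (minimum count 10, minimum total 15), scaled by TMM and tested with the quasi-likelihood test (edgeR 4.0.16, R 4.3.3), with a prior count of 0.125 and Benjamini-Hochberg adjustment over 12274 genes. Standard errors came from the weights of the fitted model and its moderated dispersion. Normalized counts are on a mean library size of 16060713. Totals were 12495957 to 20050677 counts, intervals of counts cover counting error only, and the common biological coefficient of variation was 17.5%. Ratios were tested by exact permutation (scipy 1.17.1), and promoters were scanned over 250 bases. The tests were checked on simulated counts with 200 genes changed. The edgeR test recovered 72.2% of those tested at 1 log2 unit and 98.5% at 2 log2 units, each with 15 false calls.

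The members and lists were chosen with earlier results of these data known. Named are all members, up to 3 called genes with the largest change per list, the largest opposed one, and the partners in the ratios. Other genes are said to be chosen after their values were seen. Results of some listed genes are not reported here. Alternatives were DESeq2 1.42.0, limma-voom (limma 3.58.1), RLE scaling, library size alone, no filter, a minimum of 10 counts in each of the 6 libraries, leaving out a library, the replicate number as a block, a fold change threshold and, for the ratios, 1 added count.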

Additional observations from a re-analysis of the deposited data

How the results depend on the processing

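The number of members called higher, 4, lay between 3 and 6 when each library was left out in turn and was 2 when a log2 fold change above 1 or below -1 was asked for as well. The number called lower, 0, became 1 with no filter (Ankrd37), and lay between 0 and 1 with each library left out, with Ankrd37 called without DMSO 2 and Egln3 without DMSO 3, where it could pass the filter only through the DMSO libraries, in which it is high. The other listed genes gave 24 higher and 18 lower, and 11 and 4 with the fold change threshold, which by its construction keeps fewer, and between 16 (without SKI-II 1) and 26 higher and between 12 (without DMSO 2) and 21 lower with each library left out. Without a filter edgeR estimated so much sharing of the spread across genes that each test had 91840 degrees of freedom, against 9.90 with it, and Bnip3, Bnip3l and Ankrd37 then passed, with adjusted p-values of 2.42e-10, 0.0482 and 0.00473. With each library left out in turn Hif1a ranged from -0.30 to 0.047 and Arnt from -0.018 to 0.22, so that their signs turned, and the cause was not tested. DESeq2, limma-voom and both other scalings left the calls of the members as they were. Same-numbered libraries had correlations of 0.246, 0.00994 and 0.458 between their deviations from the group means. DMSO 1 correlated best with SKI-II 2 (0.296) and DMSO 3 with SKI-II 3. With 3 libraries a group, these correlations cannot decide whether the replicate numbers pair the libraries. With the replicate block the calls were 5 higher and 0 lower among the members, the added one being Bnip3 at 1.01 (adjusted p = 0.0407), and 31 higher and 23 lower among the other listed genes. The latter include Epas1 (-1.02, adjusted p = 0.0443) and Rbx1 (-0.36, adjusted p = 0.0327). Over all genes the block raised the calls from 2256 to 2765 higher and from 2413 to 2819 lower. Every scaling kept the median of all genes within 0.012 of 0. The 5 ratios kept their direction under each alternative run for them. The depth limits what can be said of Egln3, Rora, Cox4i2 and Ankrd37.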

Other observations

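Among the other listed genes of the hypoxia response, some were chosen after their values were seen, because their calls by edgeR's quasi-likelihood test held with each library left out in turn. Ero1a, which passes the oxidising power of oxygen to proteins that fold in the endoplasmic reticulum, had 3211, 3091 and 4492 normalized counts in the DMSO libraries against 15412, 10295 and 10429 in the SKI-II libraries (log2 fold change 1.74, adjusted p = 0.000197). Plin2, a coat protein of lipid droplets, had 2409.8, 2135 and 2325 normalized counts in the DMSO libraries against 17479.9, 12127 and 10381 in the SKI-II libraries (log2 fold change 2.54, adjusted p = 1.80e-05). Gbe1, the glycogen branching enzyme, had 378, 375 and 555 normalized counts in the DMSO libraries against 1402, 1129.8 and 874 in the SKI-II libraries (log2 fold change 1.38, adjusted p = 0.000820). Stc2, a secreted glycoprotein, had 991, 1066 and 965 normalized counts in the DMSO libraries against 2129, 2091 and 1734 in the SKI-II libraries (log2 fold change 0.98, adjusted p = 0.000309). In Ero1a, Plin2, Gbe1 and Stc2 no treated library overlapped the controls, and SKI-II 1 was the highest of the treated libraries, as it was for 8 of the 10 members.

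Other hypoxia targets of the same list were lower after SKI-II. Cxcr4, the receptor of the chemokine CXCL12, had 135, 217 and 243 normalized counts in the DMSO libraries against 69.4, 54.4 and 51.3 in the SKI-II libraries (log2 fold change -1.77, adjusted p = 0.000843). Ccng2, an unconventional cyclin, had 218, 341 and 449.5 normalized counts in the DMSO libraries against 166, 61.1 and 58.7 in the SKI-II libraries (log2 fold change -1.84, adjusted p = 0.00612). Without SKI-II 1, the highest treated library, its log2 fold change was -2.49 (adjusted p = 0.00155). Selenbp1, a selenium-binding protein, had 179.7, 160.5 and 326 normalized counts in the DMSO libraries against 49.2, 54.4 and 79.8 in the SKI-II libraries (log2 fold change -1.85, adjusted p = 0.00158). Mif, a cytokine of macrophages, had 9336, 9779.6 and 10804 normalized counts in the DMSO libraries against 6714, 6491 and 6753 in the SKI-II libraries (log2 fold change -0.58, adjusted p = 0.00472). Among the genes of the oxygen-dependent control, Cul2, the scaffold of the VHL ubiquitin ligase, had 775, 815 and 898 normalized counts in the DMSO libraries against 1309, 1451 and 1595 in the SKI-II libraries (log2 fold change 0.81, adjusted p = 0.000986). In each of these 5 genes the groups were apart.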
